A study of Homo sapiens with 58 samples.

Results

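The regulatory elements (REs) described here are those of 8 genes of the bone lineage: the runt-domain transcription factor genes RUNX1, RUNX2 and RUNX3, the osteoblast transcription factor gene SP7, the mineralization gene ALPL, the bone matrix genes SPP1 and IBSP, and the transcription factor gene MEF2C. An RE was counted with a gene if its midpoint lay inside the gene body or within 100 kb of an annotated start site (GENCODE release 44, hg38). This rule took 220 of the 151457 REs measured by ATAC-seq, in which the enzyme Tn5 inserts adapters where chromatin is accessible. They comprised 52 REs at RUNX1, 35 at RUNX2, 34 at RUNX3, 19 at SP7, 32 at ALPL, 15 at SPP1, 9 at IBSP and 24 at MEF2C, and no RE fell in more than 1 of these loci. REs are named by locus and numbered along the chromosome, so that RUNX1-RE16 is the RE numbered 16 at RUNX1.

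SOX9 directs neural crest and mesenchymal progenitors towards cartilage, whereas RUNX2 is the transcription factor that commits them to bone, and SOX9 is known to oppose RUNX2 in skeletal cells. RUNX proteins bind DNA together with the partner CBFB, and SP7 acts after RUNX2 in the osteoblast. ALPL encodes the alkaline phosphatase needed for mineralization, SPP1 (osteopontin) and IBSP (bone sialoprotein) encode proteins of the mineralized matrix, and MEF2C acts in neural crest development and in the maturation of hypertrophic chondrocytes.

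Chromatin was profiled in cranial neural crest cells (CNCCs) made in vitro from H9, a line of human embryonic stem cells. The SOX9-tagged cells are those in which the endogenous SOX9 protein carried FKBP12-F36V with mNeonGreen and V5, so that dTAGV-1, a molecule that recruits a ubiquitin ligase to FKBP12-F36V, lowered SOX9 with dose. WT cells carried no tag. In the dose series, SOX9-tagged CNCCs of clones S9CC13 and S9CC47 were kept for 48 h in 0, 0.5, 1.6, 5, 16 or 500 nM dTAGV-1 (7 samples each, 4 of S9CC13 and 3 of S9CC47), at labelled SOX9 levels of 100, 77.9, 51.7, 25.8, 8.14 and 0.95% of those without dTAGV-1. WT CNCCs had 0 or 500 nM for 48 h (2 samples each). In the time course, SOX9-tagged and WT CNCCs had vehicle for 24 h, or 500 nM for the last 3 h or for all 24 h (2 samples each), and both were compared with the 24 h vehicle. The samples come from differentiations R4 and R5. Titles name clone S9CC13 for all SOX9-tagged time-course samples, but the count columns of R5 name S9CC47. Whether these cells were of 1 clone or of both is thus not settled. Vehicle was DMSO throughout.

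Totals ran from 22905782 to 81040023 counts in REs per sample, and at 0 nM the median member RE held 114 counts per sample (109 over all REs). Values are given as CPM, the usual unit of counts scaled to library size, here with TMM factors over all 58 samples, and levels of different REs are compared only as CPM per kb of RE. Promoter REs are given by a value per gene, which need not hold for each RE where a gene has several. For the crest genes TFAP2A, TFAP2B, TWIST1, NR2F1, PRRX1, ALX1 and SOX9, these values lay between 36.3 and 121 CPM per kb at 0 nM. That of the pluripotency gene POU5F1 was 2.56. No promoter RE was found for NANOG, PTPRC or SPI1. The values of LIN28A, MITF, COL2A1 and the osteoblast gene SP7 (37.2, 49.1, 43.5 and 38.0) lay within the range of the crest genes. That of SP7 is the level of SP7-RE13, and the other promoter REs of SP7, SP7-RE10 and SP7-RE12, lay below this range. The values of the neural genes PAX6 and NEUROG2 (19.8 and 15.1) also lay below it. Replicates are separate combinations of clone and differentiation. In these bulk samples, fewer cells with an open RE and less accessibility per cell cannot be told apart.

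The sequences below are the central 300 bases of the RE with the lowest p-value in a given direction on full depletion, for the loci on which the results turn. They set REs that lost accessibility at RUNX1, RUNX2, RUNX3, SPP1 and MEF2C beside REs that gained it at RUNX2 and ALPL. Capitals mark the SOX core ACAAT on either strand (ATTGT on the strand shown), the short element that the DNA-binding domain of SOX proteins recognizes.
RUNX1-RE16 (lower at 500 nM, chr21:34936908-34937207, hg38, plus strand): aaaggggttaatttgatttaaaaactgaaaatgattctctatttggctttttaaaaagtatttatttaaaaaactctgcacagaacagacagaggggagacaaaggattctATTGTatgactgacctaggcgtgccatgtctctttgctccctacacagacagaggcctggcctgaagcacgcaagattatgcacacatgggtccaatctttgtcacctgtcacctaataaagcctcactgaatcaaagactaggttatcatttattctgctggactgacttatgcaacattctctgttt
RUNX2-RE24 (lower at 500 nM, chr6:45566941-45567240, hg38, plus strand): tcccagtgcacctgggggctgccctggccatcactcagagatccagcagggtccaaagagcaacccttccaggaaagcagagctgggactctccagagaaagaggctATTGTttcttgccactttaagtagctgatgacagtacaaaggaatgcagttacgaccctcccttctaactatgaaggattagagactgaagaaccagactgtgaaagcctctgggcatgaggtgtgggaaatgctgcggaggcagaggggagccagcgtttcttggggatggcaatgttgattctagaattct
MEF2C-RE14 (lower at 500 nM, chr5:88814077-88814376, hg38, plus strand): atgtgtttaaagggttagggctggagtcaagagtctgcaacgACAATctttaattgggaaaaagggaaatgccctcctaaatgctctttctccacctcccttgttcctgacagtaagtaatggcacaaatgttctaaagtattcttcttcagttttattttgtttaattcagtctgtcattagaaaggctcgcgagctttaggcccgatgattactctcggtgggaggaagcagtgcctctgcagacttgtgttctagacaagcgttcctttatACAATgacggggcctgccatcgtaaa
RUNX3-RE27 (lower at 500 nM, chr1:25018218-25018517, hg38, plus strand): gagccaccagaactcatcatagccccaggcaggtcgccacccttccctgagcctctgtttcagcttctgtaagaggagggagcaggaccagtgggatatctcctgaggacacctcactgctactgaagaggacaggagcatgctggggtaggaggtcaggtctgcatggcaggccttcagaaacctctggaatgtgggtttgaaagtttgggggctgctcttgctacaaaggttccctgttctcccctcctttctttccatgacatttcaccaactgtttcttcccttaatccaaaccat
RUNX2-RE29 (higher at 500 nM, chr6:45613643-45613942, hg38, plus strand): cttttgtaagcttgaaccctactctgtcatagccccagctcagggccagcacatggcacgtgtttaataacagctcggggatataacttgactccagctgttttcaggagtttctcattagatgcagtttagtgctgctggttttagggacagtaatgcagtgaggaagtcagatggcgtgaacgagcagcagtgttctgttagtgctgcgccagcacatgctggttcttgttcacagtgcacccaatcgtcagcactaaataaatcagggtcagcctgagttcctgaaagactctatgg
ALPL-RE9 (higher at 500 nM, chr1:21524779-21525078, hg38, plus strand): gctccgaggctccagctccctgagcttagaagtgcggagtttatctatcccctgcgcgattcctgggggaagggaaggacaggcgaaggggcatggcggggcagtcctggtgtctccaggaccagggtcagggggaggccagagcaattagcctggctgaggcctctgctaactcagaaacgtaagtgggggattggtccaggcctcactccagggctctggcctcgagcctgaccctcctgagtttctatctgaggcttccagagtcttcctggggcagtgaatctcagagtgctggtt
SPP1-RE3 (lower at 500 nM, chr4:87911376-87911675, hg38, plus strand): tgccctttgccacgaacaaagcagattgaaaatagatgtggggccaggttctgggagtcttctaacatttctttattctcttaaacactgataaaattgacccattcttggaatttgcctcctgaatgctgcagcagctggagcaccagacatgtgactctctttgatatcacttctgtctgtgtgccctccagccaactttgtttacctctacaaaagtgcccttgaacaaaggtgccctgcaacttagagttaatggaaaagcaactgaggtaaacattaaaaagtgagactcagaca

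The shown stretches of RUNX1-RE16, RUNX2-RE24 and MEF2C-RE14 held 1, 1 and 2 cores, and their whole REs held 4, 1 and 4. Those of RUNX3-RE27, RUNX2-RE29, ALPL-RE9 and SPP1-RE3 held 0, and the whole RE of SPP1-RE3 held 1. A matched letter string is a description of the sequence and not evidence of binding.

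Before SOX9 was lowered, the loci differed in how open they were. The median RE held 24.2 CPM per kb at SP7, 7.43 at MEF2C, 6.25 at RUNX3, 4.27 at RUNX2, 4.0 at SPP1, 3.79 at RUNX1, 3.75 at ALPL and 2.82 at IBSP, against 4.44 over all REs. The RE with the highest level, SP7-RE16 (219 CPM per kb), lay 34.5 kb upstream of SP7 and nearest to the start of SP1, which encodes a widely expressed transcription factor. Only 5 of the 19 REs at SP7, 12 of 32 at ALPL, 7 of 15 at SPP1 and 1 of 9 at IBSP lay nearest to the start of the named gene among protein-coding genes, against 49 of 52 at RUNX1, 32 of 35 at RUNX2, 33 of 34 at RUNX3 and 24 of 24 at MEF2C. Levels at the SP7, ALPL, SPP1 and IBSP loci thus include many REs of neighbouring genes. The body of RUNX1 extends far upstream of its usual starts because of long annotated transcripts, and 24 of its 52 REs lay over 100 kb upstream of the most distal coding start in the GENCODE basic set.

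Full depletion for 48 h asked which of these REs change when SOX9 is lost. Of the 220 REs, 50 differed between 500 and 0 nM (edgeR quasi-likelihood test with batch as covariate, Benjamini-Hochberg adjusted p under 0.05 over all REs), of which 38 were lower and 12 higher. With the replicate block 61 were called (44 lower, 17 higher), and with neither block nor batch 24 (19 and 5). The 50 were 22.7% of the members, where 24.1% of all REs were called, 17.3% lower against a background of 13.9% and 5.45% higher against 10.2%. The share called was 40.0% at RUNX2, 35.3% at RUNX3, 25.0% at RUNX1 and 21.1% at SP7. It was 13.3% at SPP1, 9.38% at ALPL and 8.33% at MEF2C. At RUNX1, 12 REs were lower and 1 higher, at RUNX3 11 were lower and 1 higher, and at RUNX2 7 were lower and 7 higher. SP7 had 4 lower, MEF2C 2 lower, ALPL 1 lower and 2 higher, SPP1 1 of each, and IBSP 0, where edgeR gave 1 RE at an unadjusted p under 0.05 and DESeq2 called 0, with 0 at that level. The median log2 fold change was -0.17 at RUNX3, -0.12 at RUNX1 and 0.08 at RUNX2, and lay between -0.01 and 0.01 at the other loci, against 0.02 over all REs. DESeq2 called 46 members, 36 lower and 10 higher. Of the 50, 36 were called with any single replicate left out.

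**Figure D1:**
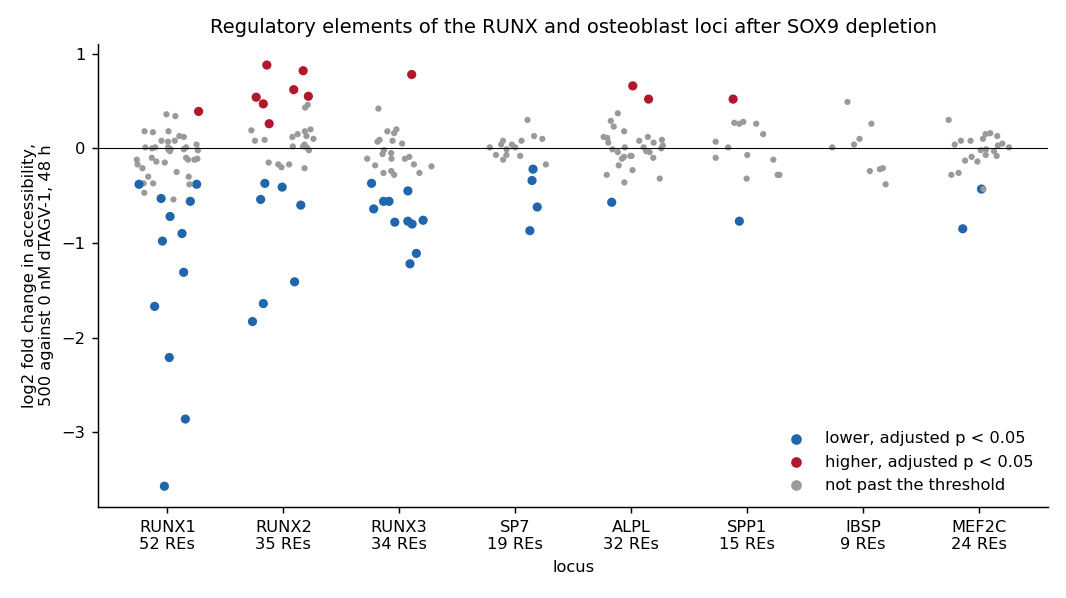
Each point is 1 RE of the locus on the x axis, and the y axis gives its log2 fold change in accessibility at 500 against 0 nM dTAGV-1 (48 h, SOX9-tagged, 7 samples each), with larger blue points for REs that were lower and red for those that were higher past the threshold. The REs with the largest decreases belong to RUNX1 and RUNX2, while most REs of SP7, ALPL, SPP1, IBSP and MEF2C lie near 0.

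**Figure D2:**
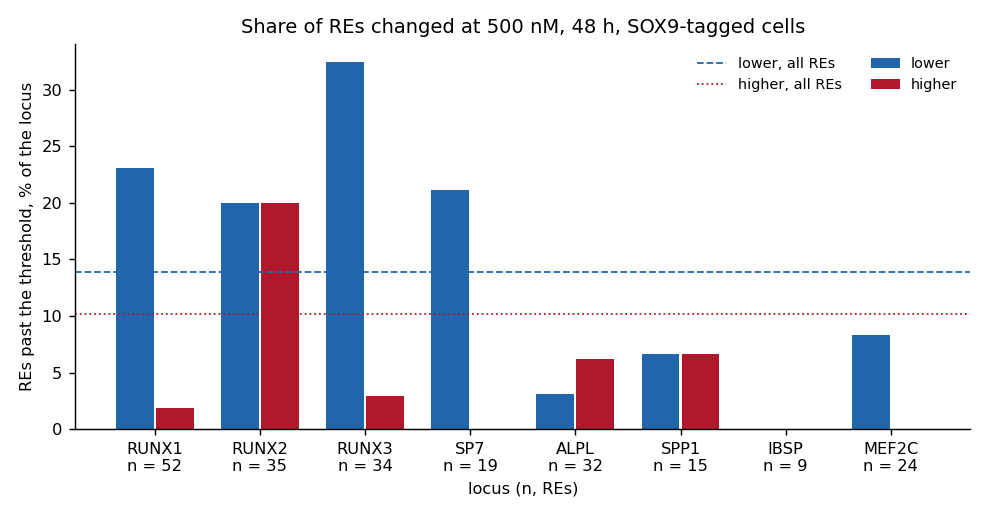
Bars give the percentage of the REs of each locus (n under its name) that were lower (blue) or higher (red) at 500 nM, and the dashed and dotted lines give the same over all 151457 REs, 13.9% and 10.2%. The lower bars of RUNX1 (23.1%), RUNX2 (20.0%), RUNX3 (32.4%) and SP7 (21.1%) stand above the dashed line, and the higher bar of RUNX2 (20.0%) alone stands above the dotted line.

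RUNX1, best known for its role in blood stem cells, held the RE that fell most. RUNX1-RE16 (chr21:34936808-34937308) lies in an intron, 47.3 kb upstream of the nearest RUNX1 start. Its level was 1.34 to 3.34 (median 2.65) CPM at 0 nM and 0.0316 to 0.652 (median 0.215) at 500 nM. The ranges did not overlap, and the log2 fold change was -3.57 ± 0.26 (SE, n = 7, edgeR adjusted p = 7.9e-11). The highest sample at 500 nM was replicate S9CC47_R5, which was also highest at RUNX1-RE38, and without it the log2 fold changes of RUNX1-RE16 and RUNX1-RE38 were -3.96 and -2.4. The neighbouring RUNX1-RE15 (chr21:34936249-34936749) fell by 1.67 ± 0.25 on the log2 scale (adjusted p = 1.5e-05).

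Far upstream, further REs of the long RUNX1 transcripts fell. RUNX1-RE38 (chr21:35439000-35439500, exonic) went from a median of 1.68 (0.946 to 2.97) CPM to 0.339 (0.316 to 0.725), with no overlap of the groups, and its log2 fold change was -2.21 ± 0.22 (adjusted p = 2.1e-08). RUNX1-RE34 (chr21:35275805-35276305, intronic) went from a median of 0.837 (0.246 to 2.15) CPM to 0.123 (0 to 0.471). Here the groups overlapped, although all 7 replicates were lower at 500 nM, and the log2 fold change was -2.86 ± 0.36 (adjusted p = 1.1e-06). Of the 24 REs over 100 kb upstream of the most distal start, 4 were lower and 0 higher at 500 nM, where 13.9% and 10.2% of all REs were. The other called RUNX1 REs had log2 fold changes from -1.31 at RUNX1-RE21 to -0.38 at RUNX1-RE40 and RUNX1-RE2. The single higher RE was RUNX1-RE24 (chr21:35048137-35048637), 0.9 kb downstream of the distal start, at 1.61 (0.901 to 2.01) CPM without and 2.34 (1.53 to 2.57) with 500 nM. It rose by 0.39 ± 0.14 (adjusted p = 0.042), a call lost in 5 of the 7 fits that left out a replicate.

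The promoter REs at the proximal RUNX1 start did not pass the threshold. RUNX1-RE10 (chr21:34888510-34889010) held 10.3 ± 2.49 CPM (SD, n = 7) at 0 nM and 9.47 ± 2.31 at 500 nM. Its log2 fold change was -0.12 ± 0.14 (adjusted p = 0.62). RUNX1-RE9 and RUNX1-RE11 had log2 fold changes of -0.01 and 0.12 with adjusted p of 0.96 and 0.46. The RE with the highest level of the locus, RUNX1-RE51 at 43.4 CPM per kb, lay nearest to SETD4 and gave 0.13 ± 0.07 (adjusted p = 0.23).

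At RUNX2, the gene that commits mesenchymal cells to the osteoblast fate, equal numbers of REs fell and rose. The RE with the lowest p-value was RUNX2-RE24 (chr6:45566841-45567341), in an intron 144.5 kb downstream of the nearest start. It held 1.81 to 4.88 (median 2.75) CPM at 0 nM and 0.54 to 1.2 (median 0.931) at 500 nM. No sample at 500 nM reached the lowest sample at 0 nM, and the log2 fold change was -1.83 ± 0.19 (adjusted p = 3.6e-08). RUNX2-RE25 (chr6:45577779-45578590), also intronic, fell by 1.41 ± 0.20 (adjusted p = 6.2e-06). RUNX2-RE1 (chr6:45236703-45237203) lies 91.2 kb upstream of the nearest RUNX2 start and fell by 1.64 ± 0.23 (adjusted p = 5.3e-06). The other 4 lower REs had log2 fold changes between -0.60 (RUNX2-RE31) and -0.37 (RUNX2-RE15). The RE with the highest level, RUNX2-RE6 at 47.5 CPM per kb, lay nearest to the start of SUPT3H and gave 0.01 ± 0.06 (adjusted p = 0.94).

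The RUNX2 REs that rose had smaller fold changes than the most strongly lowered ones. RUNX2-RE30 (chr6:45630628-45631128, intronic) went from a median of 1.25 (0.996 to 1.62) CPM to 2.29 (1.76 to 3.22), with no overlap between the groups, and rose by 0.88 ± 0.14 (adjusted p = 5e-05). RUNX2-RE17 (chr6:45502336-45502836, intronic) went from 1.35 (0.943 to 1.54) CPM to 2.29 (1.83 to 3.15), again with no overlap, and rose by 0.82 ± 0.14 (adjusted p = 0.0001). RUNX2-RE29 (chr6:45613543-45614043, intronic) was the most open of the 3, at 6.62 (3.74 to 8.91) CPM without and 10.3 (5.54 to 13.6) with 500 nM, and it rose by 0.62 ± 0.10 (adjusted p = 4.7e-05). Its groups overlapped, but each of the 7 replicates was higher at 500 nM. A further higher RE, named here after its value was seen, covers the distal promoter P1, from which the longer bone isoform of RUNX2 is made. RUNX2-RE3 (chr6:45327966-45328700) held 1.95 ± 0.33 CPM at 0 nM and 2.69 ± 0.421 at 500 nM (SD, n = 7) and rose by 0.47 ± 0.14 (adjusted p = 0.012), in 6 of 7 replicates. Its groups overlapped, and the call was lost with neither block nor batch in the fit. In the time course, its median in SOX9-tagged cells was 1.81 CPM with vehicle, 1.69 after 3 h and 1.87 after 24 h. In WT cells the same medians were 1.39, 1.9 and 1.83 CPM. The REs at the proximal promoter, RUNX2-RE10, RUNX2-RE11 and RUNX2-RE12, had log2 fold changes of 0.19, 0.02 and 0.15 with adjusted p of 0.15, 0.92 and 0.48.

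RUNX3, which acts in chondrocyte maturation, sensory neurons and T cells, had the largest share of lower REs. Its 11 lower REs had log2 fold changes from -1.22 (RUNX3-RE32) to -0.37 (RUNX3-RE25). RUNX3-RE27 (chr1:25018118-25018618), 53.2 kb upstream of the nearest RUNX3 start, was the RE with the highest level of the locus, at 51.4 CPM per kb. It held 18.9 to 34.9 (median 22.1) CPM at 0 nM and 6.86 to 18.2 (median 11.7) at 500 nM, with no overlap, and fell by 1.11 ± 0.09 (adjusted p = 4.9e-10). The adjoining RUNX3-RE26 (chr1:25017324-25017824) went from 22.5 ± 3.15 to 15.3 ± 1.88 CPM (SD, n = 7) and fell by 0.56 ± 0.09 (adjusted p = 2.1e-05). RUNX3-RE32 (chr1:25046689-25047189) had the largest decrease of the locus, from a median of 5.16 (3.48 to 8.01) CPM to 2.25 (1.73 to 2.57), again with no overlap, a log2 fold change of -1.22 ± 0.14 (adjusted p = 2.2e-07). Nearer the gene, the intronic RUNX3-RE10, RUNX3-RE15, RUNX3-RE16 and RUNX3-RE17 fell by 0.64, 0.78, 0.76 and 0.77, with adjusted p from 4.5e-06 to 8.3e-05. The single RE that rose was RUNX3-RE4 (chr1:24864406-24864906), from 1.82 (1.05 to 2.12) CPM to 2.81 (1.68 to 4.28), by 0.78 ± 0.13 (adjusted p = 5.9e-05). The promoter RE, RUNX3-RE13, gave -0.17 ± 0.13 (adjusted p = 0.40).

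Summing the CPM of all REs of a locus gave its total accessibility. At RUNX3 the sum went from 201.1 ± 24.5 to 151.0 ± 14.2 CPM (SD, n = 7), and the log2 ratio of 500 to 0 nM lay between -0.5 and -0.33 in the 7 replicates. The RUNX1 sum was lower in all 7 replicates too, with log2 ratios between -0.21 and -0.04, beside -0.04 and -0.01 in the 2 WT replicates. Ratios ran from -0.07 to 0.15 at RUNX2, higher in 5 of 7 replicates, beside 0.06 and 0.12 in WT cells. The mean ratio of the other loci lay between -0.02 (ALPL) and 0, with both signs among the replicates of each. These sums are descriptions and were not tested.

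**Figure D3:**
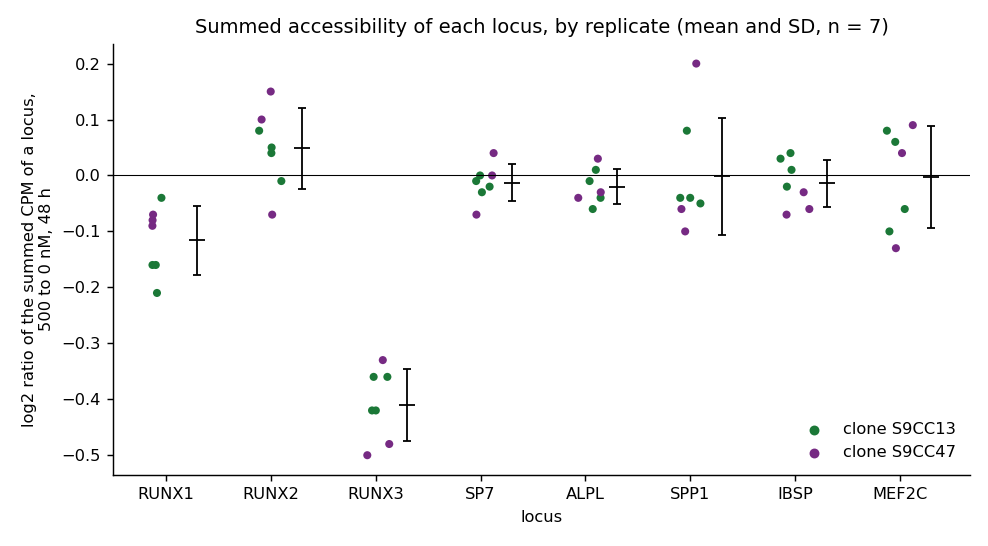
Points give, for each of the 7 replicates of the SOX9-tagged dose series, the log2 ratio of the summed CPM of all REs of a locus at 500 to that at 0 nM (48 h), coloured by clone, with the mean and SD beside them. RUNX3 stands below every other locus, from -0.5 to -0.33, and the points of SP7, ALPL, SPP1, IBSP and MEF2C lie on both sides of 0.

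SP7, which acts after RUNX2 in osteoblast commitment, had 3 promoter REs, of which SP7-RE12 and SP7-RE13 were open in these crest cells. Both lie at the upstream end of the annotated gene (chr12:53345315). The start of its reference (MANE) transcript lies elsewhere, at chr12:53336354. SP7-RE12 (chr12:53344832-53345656) held 21.4 (16.1 to 21.8) CPM at 0 nM and 16.6 (15.9 to 21.8) at 500 nM. The groups overlapped, and the log2 fold change was -0.17 ± 0.08 (adjusted p = 0.12). SP7-RE10, at another SP7 start, held only 1.52 (1.02 to 1.79) CPM at 0 nM and gave 0.08 ± 0.15 (adjusted p = 0.78). SP7-RE13 (chr12:53345761-53346261), the next RE upstream of SP7-RE12, fell by 0.22 ± 0.08 (adjusted p = 0.033), but this call was lost with DESeq2, with RLE scaling and in 4 of the 7 fits without a replicate. SP7-RE15 (chr12:53371081-53371581), nearest to SP1, fell by 0.34 ± 0.08 (adjusted p = 0.0028). SP7-RE1 and SP7-RE2, 93.9 and 91.2 kb from an SP7 start, fell by 0.62 and 0.87 (adjusted p = 0.0025 and 0.0034). The most open RE, SP7-RE16, held 108 (100.0 to 119) CPM at 0 nM and 121 (104 to 129) at 500 nM, giving 0.08 ± 0.05 on the log2 scale (adjusted p = 0.28).

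At ALPL, the intronic pair ALPL-RE8 (chr1:21520849-21521349) and ALPL-RE9 (chr1:21524679-21525179) rose. ALPL-RE9 went from 1.36 (0.715 to 1.76) CPM to 1.85 (1.39 to 3.15). It was higher in 7 of 7 replicates, with overlapping groups, and rose by 0.66 ± 0.16 (adjusted p = 0.0032). ALPL-RE8 rose by 0.52 ± 0.14 (adjusted p = 0.0057). The ALPL promoter RE, ALPL-RE7, held 10.9 ± 1.45 CPM at 0 nM and 10.7 ± 1.2 at 500 nM (SD, n = 7, log2 fold change -0.04 ± 0.09, adjusted p = 0.79), and ALPL-RE15, at a further annotated start, gave -0.28 ± 0.13 (adjusted p = 0.11). ALPL-RE29, which lay nearest to RAP1GAP, fell by 0.57 ± 0.17 (adjusted p = 0.016).

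The matrix gene loci had few called REs. SPP1-RE3 (chr4:87911276-87911776) went from 1.12 (0.683 to 1.25) CPM to 0.606 (0.377 to 0.906), lower in 7 of 7 replicates, and fell by 0.77 ± 0.21 (adjusted p = 0.0073). Its groups overlapped. SPP1-RE8 (chr4:87989736-87990236) rose by 0.52 ± 0.18 (adjusted p = 0.043), although 2 of 7 replicates were lower, and the call was lost with DESeq2 and in 4 of the 7 fits without a replicate. The SPP1 promoter RE, SPP1-RE6, held 5.41 (4.23 to 7.55) CPM at 0 nM and 4.49 (2.97 to 5.5) at 500 nM, and the difference of -0.32 ± 0.12 on the log2 scale missed the threshold (adjusted p = 0.052). No RE lay at the IBSP promoter (within 1000 bp of its start), and the most open RE of that locus, IBSP-RE4, gave -0.21 ± 0.11 (adjusted p = 0.20).

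MEF2C had 2 REs that fell. MEF2C-RE14 (chr5:88813795-88814658), in an intron 9.6 kb upstream of the nearest MEF2C start, held 3.74 to 6.54 (median 5.24) CPM at 0 nM and 2.52 to 3.51 (median 2.61) at 500 nM. The groups did not overlap, and it fell by 0.85 ± 0.13 (adjusted p = 2.7e-05). MEF2C-RE17 (chr5:88827130-88827630), a promoter RE, fell by 0.43 ± 0.13 (adjusted p = 0.019). This call was lost with neither block nor batch in the fit, and without S9CC13_R13 or S9CC47_R5. The most accessible of the MEF2C promoter REs per kb, MEF2C-RE19, held 33.7 ± 2.13 CPM at 0 nM and 33.4 ± 1.65 at 500 nM (SD, n = 7, log2 fold change -0.02 ± 0.06, adjusted p = 0.87). Over all 8 genes, 22 REs lay at a promoter of their own gene. Of these, 2 were lower and 2 higher at 500 nM, where 13.9% and 10.2% of all REs were.

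The intermediate concentrations asked how far SOX9 must fall before these REs respond. At 16 nM (8.14% SOX9), 22 members were lower and 9 higher (backgrounds 9.12% and 7.12%, members 10.0% and 4.09%). At 5 nM (25.8% SOX9), 11 were lower and 1 higher (backgrounds 4.24% and 1.08%, members 5.0% and 0.455%). With clone and differentiation together as a replicate block, these counts rose to 54 at 16 nM and 21 at 5 nM. At 1.6 nM (51.7% SOX9) edgeR called 0 members, with 5 at an unadjusted p under 0.05 and a background of 0.0383%, and DESeq2 also called 0. With the replicate block 1 member passed at 1.6 nM, RUNX1-RE16 (log2 fold change -0.44, adjusted p = 0.028). At 0.5 nM (77.9% SOX9) edgeR called 0, with 9 at an unadjusted p under 0.05 and a background of 0.0%, and DESeq2 called 0 with 6.

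The comparisons share their 0 nM samples, so the values are given side by side, in the order 5, 16 and 500 nM. RUNX1-RE16 stood at log2 fold changes of -1.53, -2.68 and -3.57. RUNX2-RE24 stood at -0.74, -1.20 and -1.83, and MEF2C-RE14 at -0.51, -0.78 and -0.85. RUNX3-RE27 stood at -0.37, -0.68 and -1.11. Each of these values passed the threshold. Of the 38 REs lower at 500 nM, 11 were also called at 5 nM and 21 at 16 nM, and 16 were called at neither. Of the 12 higher, 1 was called at 5 nM, RUNX2-RE29 (0.40, adjusted p = 0.048), 4 at 16 nM and 8 at neither. These overlaps are not given over all REs and describe the members alone. A further 6 members were called at 16 nM but not at 500 nM. They included the promoter REs RUNX1-RE11 (-0.44, adjusted p = 0.0075, against 0.12 at 500 nM) and MEF2C-RE13 (0.27, adjusted p = 0.0073, against 0.13), and the only RE called at IBSP in the dose series, IBSP-RE1 (0.80, adjusted p = 0.011, against 0.49 with adjusted p = 0.14).

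**Figure D4:**
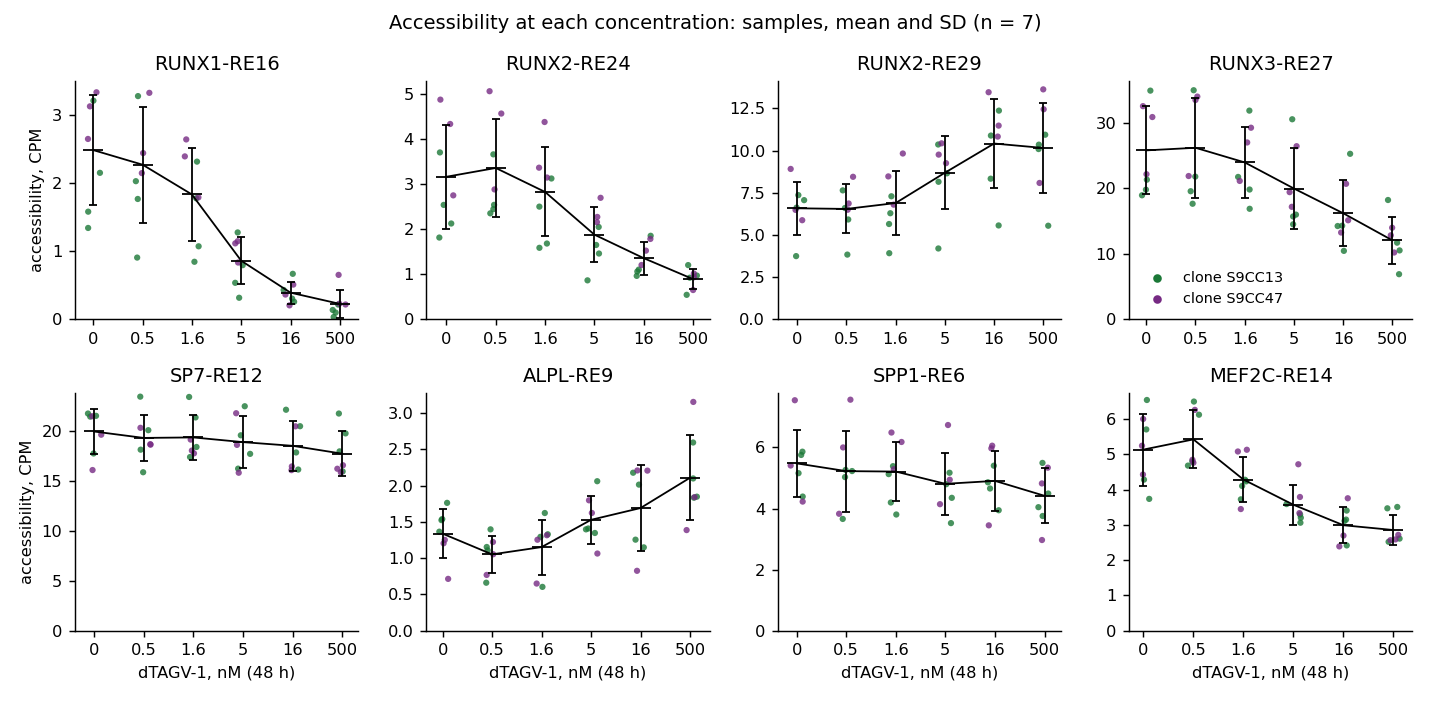
Each panel shows 1 RE, with the dTAGV-1 concentration on the x axis (nM, 48 h, evenly spaced categories) and accessibility in CPM on the y axis from 0, points for the 7 samples of each concentration coloured by clone, and the black line and bars for mean and SD. RUNX1-RE16, RUNX2-RE24, RUNX3-RE27 and MEF2C-RE14 were called lower at 5, 16 and 500 nM, RUNX2-RE29 and ALPL-RE9 were called higher at 500 nM, and the promoter REs SP7-RE12 and SPP1-RE6 did not pass the threshold at 500 nM.

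A Hill curve between the mean levels at 0 and 500 nM described the dose response by its ED50, the SOX9 level in percent at which an RE stood midway. Over the 17 named REs that fell, the ED50 ran from 6.82% (SP7-RE13) to 48.5% (RUNX2-RE1) with a median of 26.5%, and over the 8 that rose from 5.94% (ALPL-RE8) to 35.9% (RUNX1-RE24) with a median of 11.0%. RUNX2-RE1 had 48.5% (42 to 53.6%), where the range is that with each replicate left out in turn. RUNX1-RE16 had 36.1% (34.8 to 37.3%), MEF2C-RE14 35.4% (31.7 to 41.7%) and RUNX1-RE38 33.2% (31.7 to 34.1%). RUNX2-RE24 lay at 26.5% (24.5 to 28.8%) and RUNX3-RE27 at 16.5% (14.3 to 18.1%). Fitted on the log2 scale, the values were 16.7% for RUNX2-RE24, 26.3% for RUNX1-RE16, 28.5% for RUNX1-RE38, 39.0% for RUNX2-RE1, 31.6% for MEF2C-RE14 and 12.7% for RUNX3-RE27. Among the REs that rose, RUNX2-RE29 had 28.2% (25.7 to 31%), RUNX2-RE30 11.5% (8.85 to 12.7%) and ALPL-RE9 7.59% (5.92 to 9.75%). Some values were poorly determined, such as RUNX1-RE24 at 35.9% (20.4 to 65.6%). These values are descriptions and were not tested.

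The time course addressed how early these loci change. At 3 h, 20 members were lower and 3 higher (9.09% and 1.36% of members, backgrounds 7.43% and 0.912%), and at 24 h 28 were lower and 5 higher (12.7% and 2.27%, backgrounds 9.93% and 4.7%). The REs lower at 3 h comprised 8 at RUNX1, 4 at RUNX2, 4 at MEF2C, 3 at RUNX3 and 1 at SP7. With 2 samples per group, a fit without R4 or R5 left 1 SOX9-tagged sample per group. That fit was run together with the WT samples, which supplied its spread. Its counts are thus not a like comparison with the main fit. Without R4, 13 members were called at 3 h and 12 at 24 h, and without R5 14 and 23. DESeq2 called 13 and 18. Of the 20 lower at 3 h, 13 were lower at 48 h in the separate dose series (65% of the 20 and 34.2% of the 38), and of the 28 lower at 24 h, 22 were (78.6% and 57.9%). The same shares over all REs are not given, so these overlaps describe the member REs alone.

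The 4 REs with the largest decreases at 48 h, RUNX1-RE16, RUNX1-RE34, RUNX1-RE38 and RUNX2-RE24, were also lower at 3 h. RUNX1-RE16 held 4.65 and 2.21 CPM with vehicle, 0.533 and 0.336 after 3 h, and 0.388 and 0.221 after 24 h (differentiations R4 and R5). Both treated samples were below both vehicle samples at each time, with log2 fold changes of -3.00 ± 0.26 (adjusted p = 1.3e-07) and -3.52 ± 0.27 (adjusted p = 1.5e-08). RUNX2-RE24 held 6.29 and 5.13 CPM with vehicle, 1.02 and 1.29 after 3 h and 1.05 and 1.14 after 24 h, at log2 fold changes of -2.35 and -2.44 (adjusted p = 1.6e-07 and 5.5e-08). MEF2C-RE14 went from 6.91 and 6.52 CPM to 2.67 and 2.65 at 3 h and 2.7 and 2.38 at 24 h (-1.40 and -1.46, adjusted p = 5.2e-06 and 2e-06). RUNX1-RE34 and RUNX1-RE38 fell by 2.4 and 2.67 at 3 h (adjusted p = 0.00059 and 2.8e-06).

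At RUNX3, 3 REs were lower at 3 h. RUNX3-RE27 fell by 0.77 at 3 h and by 1.00 at 24 h (adjusted p = 1.6e-05 and 4.6e-07). Its neighbour RUNX3-RE28 fell by 1.32 and 1.21 (adjusted p = 3.3e-06 and 5.4e-06). RUNX3-RE10, RUNX3-RE15, RUNX3-RE16 and RUNX3-RE17 gave -0.08, -0.06, -0.26 and -0.13 at 3 h (adjusted p = 0.81, 0.87, 0.50 and 0.80). At 24 h the same 4 gave -0.26, -0.49, -0.84 and -0.53 (adjusted p = 0.13, 0.0049, 0.0025 and 0.047). The third RE called at 3 h, the intronic RUNX3-RE19, fell by 0.70 (adjusted p = 0.019), whereas the upstream RUNX3-RE26 and RUNX3-RE32 gave -0.02 and -0.31 (adjusted p = 0.96 and 0.23). Whether the change at 24 h differs from that at 3 h was not tested.

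None of the 12 REs higher at 48 h was called higher at 3 h, and 3 of the 12 were higher at 24 h, overlaps that are not given over all REs. Calls of higher REs were few, 3 at 3 h and 5 at 24 h. DESeq2 called 0 and 1, and 0 were called at either time without R4, against 2 at each without R5. RUNX2-RE29 held 9.3 and 9.26 CPM with vehicle, 9.75 and 10.7 after 3 h, and 19.4 and 11.6 after 24 h. Its log2 fold change was 0.08 ± 0.16 at 3 h (adjusted p = 0.88) and 0.67 ± 0.16 at 24 h (adjusted p = 0.0068). RUNX2-RE17 gave 0.32 at 3 h (adjusted p = 0.51) and 0.79 at 24 h (adjusted p = 0.01), and RUNX2-RE30 gave 0.01 and 0.22 (adjusted p = 0.99 and 0.58). The 24 h calls of RUNX2-RE29 and RUNX2-RE17 were lost with DESeq2, with no replicate block and without R4, and that of RUNX2-RE17 also without R5. Of the 3 REs that edgeR called higher at 3 h, 2 were lower at 48 h, RUNX2-RE31 (0.71 at 3 h and -0.60 at 48 h) and SP7-RE13 (0.33 and -0.22). For SP7-RE13 the 3 h call was lost in 4 of 6 alternatives and the 48 h call in 7 of 12.

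Other REs were called early and not at 48 h. Of the member REs called at 3 h or 24 h, 11 were not called at 48 h, 8 of them called at 3 h. The matching share over all REs is not given. RUNX1-RE31 (chr21:35190268-35190768, intronic) held 2.95 and 4.6 CPM with vehicle, 1.27 and 3.25 after 3 h and 1.27 and 3.85 after 24 h. It fell by 0.89 ± 0.22 at 3 h (adjusted p = 0.011) and by 0.75 ± 0.21 at 24 h (adjusted p = 0.021), and gave 0.18 ± 0.20 at 48 h (adjusted p = 0.59). RUNX2-RE27 fell by 1.26 and 1.19 (adjusted p = 0.00056 and 0.00058) and gave -0.21 at 48 h (adjusted p = 0.57). MEF2C-RE24 fell by 1.43 and 1.21 (adjusted p = 0.00092 and 0.0023) and gave -0.43 at 48 h (adjusted p = 0.20). RUNX1-RE43 fell by 1.54 and 1.15 (adjusted p = 0.002 and 0.01) and gave -0.54 at 48 h (adjusted p = 0.063). The label R5 alone is shared between the dose series and the SOX9-tagged time course, so time and differentiation cannot be told apart here, and the difference between times was not tested.

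WT cells measured the effect of dTAGV-1 without the tag. After 3 h and 24 h edgeR called 0 members in WT cells, with 6 at an unadjusted p under 0.05 at each time and a background of 0.0% at both, and DESeq2 called 0 with 1 at each time. The change differed between SOX9-tagged and WT cells at 14 members at 3 h, all more negative in SOX9-tagged cells (background 5.2%), and at 18 at 24 h, 17 of them more negative (background 6.73%). RUNX1-RE16 held 7.65 and 4.45 CPM in WT cells with vehicle, 6.79 and 4.21 after 3 h and 7.23 and 4.06 after 24 h. Its difference between the genotypes was -2.89 ± 0.28 at 3 h and -3.45 ± 0.28 at 24 h (adjusted p = 1.8e-07 and 1.1e-08). RUNX2-RE24 gave -2.50 ± 0.25 and -2.53 ± 0.25 (adjusted p = 3e-07 and 1.3e-07), and MEF2C-RE14 -1.31 ± 0.23 and -1.54 ± 0.23 (adjusted p = 0.00046 and 4.3e-05). The single positive difference at 24 h was at RUNX2-RE29 (0.89 ± 0.24, adjusted p = 0.02).

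**Figure D5:**
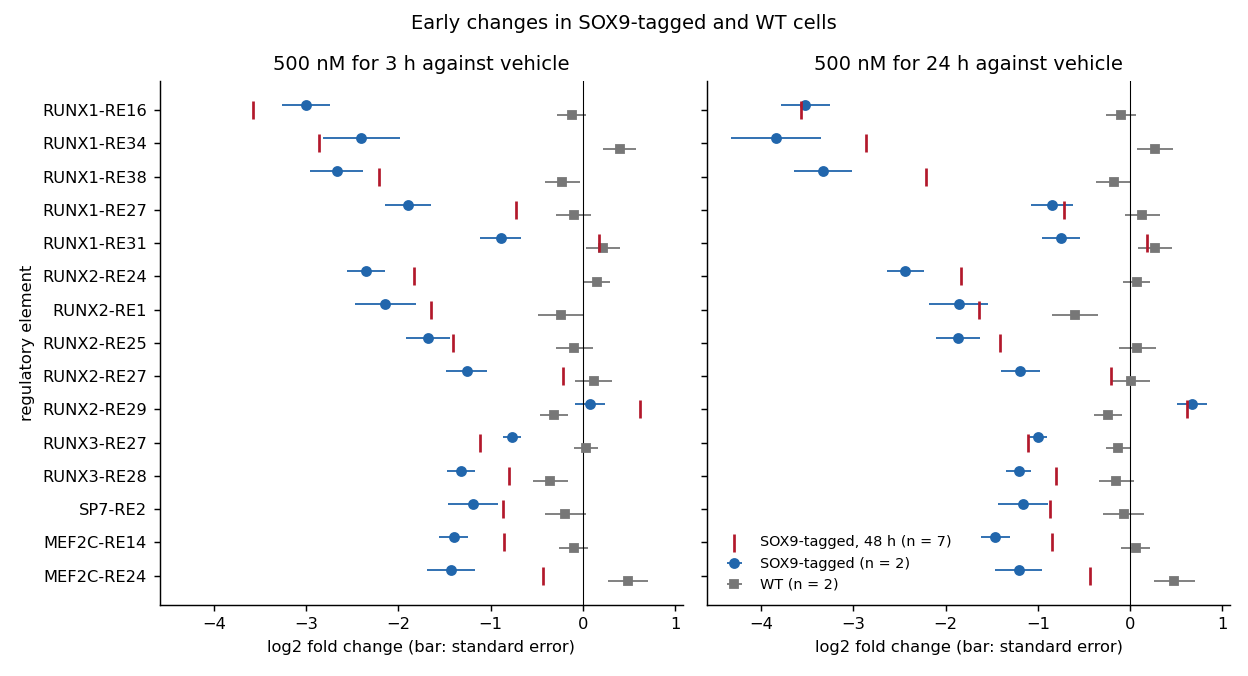
Blue circles and grey squares give the log2 fold change of each RE on the y axis in SOX9-tagged and WT cells at 500 nM dTAGV-1 for 3 h (left) or 24 h (right) against vehicle (2 samples each), with bars for the standard error, and red ticks give the 48 h value in SOX9-tagged cells (7 samples). SOX9-tagged values of RUNX1-RE16, RUNX2-RE24 and MEF2C-RE14 lie far below the WT values at both times, and the red ticks of RUNX1-RE31, RUNX2-RE27 and MEF2C-RE24 lie nearer to 0 than their early values.

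At 48 h, edgeR called 1 member in WT cells, RUNX3-RE32 (background 0.303%), with 29 at an unadjusted p under 0.05, and DESeq2 called 0 with 2 at that level. RUNX3-RE32 held 4 and 5.64 CPM at 0 nM and 2.34 and 4.53 at 500 nM in differentiations R8 and RSh. It fell by 0.53 in WT cells (adjusted p = 0.047), beside 1.22 in SOX9-tagged cells, and without R8 or without RSh 0 members were called in WT cells. The fits without R8 or RSh left 1 WT sample per group, and their spread came from the SOX9-tagged samples. More widely at RUNX3, the median log2 fold change of the 34 REs was -0.18 in WT cells, where it was -0.17 in SOX9-tagged cells and -0.01 over all REs in WT cells. For the 11 lower RUNX3 REs of the dose series, the WT change had a median of -0.19 against -0.76, with 9 of 11 below 0 and 6 at an unadjusted p under 0.05. The RUNX3 sum changed in WT cells by -0.21 and -0.07 on the log2 scale in R8 and RSh at 48 h, and by -0.08 and -0.13 at 24 h in R4 and R5. For the 12 RUNX1 and the 7 RUNX2 REs that were lower, the WT medians were -0.02 and 0.28. For the 7 RUNX2 REs that were higher, the WT median was 0.07 (-0.05 to 0.53), against 0.55 in SOX9-tagged cells.

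The difference between the genotypes at 48 h was tested in a fit added after these values were seen, with genotype and replicate as block. It passed the threshold at 21 of the 220 members, 16 of them more negative in SOX9-tagged cells (background 10.8%). Of the 21, 20 were among the 50 called in SOX9-tagged cells, but both fits used the same SOX9-tagged samples, so this overlap is not independent. DESeq2 called 15. RUNX1-RE16 gave -3.87 ± 0.33 (adjusted p = 6.2e-10), RUNX2-RE24 -2.22 ± 0.28 (adjusted p = 7.7e-07), RUNX3-RE27 -0.96 ± 0.14 (adjusted p = 5.5e-06) and MEF2C-RE14 -1.08 ± 0.22 (adjusted p = 0.00086). RUNX3-RE32 gave -0.66 ± 0.21 (adjusted p = 0.044). RUNX2-RE29 and ALPL-RE9 were more positive in SOX9-tagged cells, by 0.57 ± 0.16 and 1.17 ± 0.29 (adjusted p = 0.014 and 0.0071). RUNX2-RE29 was the only higher RUNX2 RE to pass this test, and RUNX2-RE3, RUNX2-RE17 and RUNX2-RE30 did not. Of the 11 lower RUNX3 REs, 5 passed this test. RUNX3-RE17, RUNX3-RE26 and RUNX3-RE28 were among those that did not, at -0.47 ± 0.18, -0.36 ± 0.15 and -0.42 ± 0.20 (adjusted p = 0.10, 0.14 and 0.22).

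Sequence was compared over the 177 member REs of the most common width, so that length was equal. Of these, 31 were lower and 11 higher at 48 h and 17 lower at 3 h, and counts below are in that order. The SOX core ACAAT was found in 46.9% of the 177 and in 52.4% of all REs of that width, and in 17, 7 and 12 members of the called sets. The SOX9 dimer is known to bind facing cores, and a pair of ACAAT and ATTGT separated by 3 to 5 bases was found in 0 of the 177 and in 0.178% of all. The AP-1 motif TGANTCA was found in 14.1% of members and 15.5% of all, and in 7, 2 and 8 of the called sets. The RUNX motif TGTGGT was found in 27.1% of members and 29.0% of all, and in 11, 1 and 6. The TEAD motif GGAATG was found in 31.6% and 30.9%, and in 12, 3 and 5, and the MEF2 motif (CTA and TAG with 4 bases between) in 9.04% and 6.48%, and in 3, 1 and 1. Both strands were searched, and motifs may overlap. REs called lower at 48 h had a median GC content of 48%, those called higher 46.6% and those not called 52.2%. By position, 23 of 100 intronic, 13 of 98 flanking (outside the gene body) and 1 of 6 exonic members were lower, and 1 of 16 that overlapped an untranslated region. In that order, 9, 2, 0 and 1 were higher. Over all REs 13.9% were lower and 10.2% higher. Of the 121 members in gene bodies, 47 lay at RUNX1 and 33 at RUNX2, so position was not separated from locus.

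Other genes of the osteoblast program, taken with the same window and without the REs already counted, held 538 REs, of which 71 were lower and 53 higher at 500 nM (13.2% and 9.85%, close to the backgrounds of 13.9% and 10.2%). The direction differed by gene. MSX2, a homeobox gene of cranial bone and sutures, had 9 higher and 0 lower of 16 REs, and of the bone matrix genes, SPARC and COL1A2 had 6 of 27 and 4 of 22 higher and 0 lower, whereas COL1A1 had 6 lower and 3 higher of 41 and BGLAP, which encodes osteocalcin, 4 lower and 2 higher of 14. SMAD5, which carries BMP signals, had 9 lower and 1 higher of 26, and LRP5, a WNT co-receptor, had 9 lower and 0 higher of 33. CBFB, the partner of the RUNX proteins, had 1 lower and 2 higher of 26. DLX5, TNFSF11 and OMD had 0 called of 15, 4 and 6. MEPE had no RE beyond those already counted, and 12 of the member REs also lay in a window of these other genes. These lists were not tested.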

How the data were processed

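ATAC-seq was measured in 58 samples of H9-derived CNCCs. Per the study's methods and the submitters' processing notes, the authors trimmed reads, aligned them to hg38 with Bowtie2 (2.4.1), called peaks with MACS2 (2.2.7.1) and deposited raw counts of reads per RE, without normalization. SAMtools 1.10, deepTools 3.5.0 and bedtools are also named in those notes. Counting over one shared set of REs means that an RE closed in most samples can be missing from the table. The coordinates fit hg38, and genes are those of GENCODE release 44. The member genes and gene lists were chosen with earlier results of these data known.

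All 151457 REs were tested with edgeR 4.0.16 (R 4.3.3, TMM scaling, no filter, quasi-likelihood F test, Benjamini-Hochberg threshold 0.05). Differentiation batch was a covariate at 48 h in SOX9-tagged cells, and differentiation a block in WT cells and in the time course. Replicates that share clone and differentiation in their titles deviated together, with correlations of 0.205 or more (mean 0.638 at 500 nM) over 130320 REs, so pairing comes from the labels and was checked on the data. The lowest reduced chi-square of 134 same-group pairs was 2.6, so no library was counted as deposited more than once. Where clone and differentiation repeat, p-values measure the spread between differentiations of one cell line.

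Depth was 22905782 to 81040023 counts per sample. Alternatives were DESeq2 1.42.0, RLE scaling, a low-count filter, fits with a replicate block, fits with neither block nor batch, and fits without each replicate. The fits were tested on simulated data. CPM, ED50 and figures were computed with numpy 2.4.6, scipy 1.17.1 and pandas 2.3.3. In 1 replicate of the dose series, S9CC13_R14, the labels of 0 and 0.5 nM disagree between title and concentration, and titles were used. The R5 time-course columns of SOX9-tagged cells name clone S9CC47, whereas the sample titles name S9CC13.

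Named REs were, per gene, up to 3 promoter REs (within 1000 bp of a coding start) with the highest CPM, the 3 lower and 3 higher REs with the lowest p at 500 nM, any called at 1.6 or 0.5 nM, in WT cells or in an interaction of opposite sign, and the RE with the highest CPM. REs discussed for the time course, for dose or for the 48 h difference outside this rule were chosen after their values were seen.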

Additional observations from a re-analysis of the deposited data

Results flagged for a closer look

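In 7 of 98 groups of 7 samples of the named REs, 1 sample stood apart from the others by Dixon's criterion, which flags about 1 in 20 groups by chance. In replicate S9CC47_R5 at 500 nM, RUNX1-RE16 held 0.652 CPM where the other samples held 0.0316 to 0.227, RUNX1-RE38 held 0.725 where the others held 0.316 to 0.462, and RUNX1-RE51 held 34.2 where the others held 41.1 to 44.8. In replicate S9CC13_R10, SP7-RE1 held 2.57 CPM at 0 nM (others 1.54 to 1.95) and IBSP-RE4 held 6.56 CPM at 500 nM (others 3.44 to 4.58). In replicate S9CC47_R8, RUNX3-RE17 held 3.79 CPM at 0 nM (others 6.31 to 8.0) and MEF2C-RE13 held 25.1 CPM at 500 nM (others 13.3 to 18.3).

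The change on dTAGV-1 differed between SOX9-tagged and WT cells, by the interaction term of the edgeR fit, at several named REs. At 3 h the difference of log2 fold changes (SOX9-tagged minus WT) was -2.89 at RUNX1-RE16, -1.11 at RUNX1-RE31, -2.80 at RUNX1-RE34, -2.46 at RUNX1-RE38, -1.90 at RUNX2-RE1, -2.50 at RUNX2-RE24, -1.59 at RUNX2-RE25, -0.81 at RUNX3-RE27 and -1.31 at MEF2C-RE14. At 24 h it was -3.45 at RUNX1-RE16, -1.04 at RUNX1-RE31, -4.13 at RUNX1-RE34, -3.18 at RUNX1-RE38, -2.53 at RUNX2-RE24, -1.97 at RUNX2-RE25, 0.89 at RUNX2-RE29, -0.89 at RUNX3-RE27, -1.12 at SP7-RE2 and -1.54 at MEF2C-RE14. At 48 h, in the fit added after seeing the data, it was -3.87 at RUNX1-RE16, 0.93 at RUNX1-RE24, -3.15 at RUNX1-RE34, -2.60 at RUNX1-RE38, -1.94 at RUNX2-RE1, -2.22 at RUNX2-RE24, -1.69 at RUNX2-RE25, 0.57 at RUNX2-RE29, 0.98 at RUNX3-RE4, -0.96 at RUNX3-RE27, -0.66 at RUNX3-RE32, -0.44 at SP7-RE15, 1.17 at ALPL-RE9 and -1.08 at MEF2C-RE14. RUNX1-RE24 and ALPL-RE9 rose in SOX9-tagged cells (0.39 and 0.66) and had log2 fold changes of -0.53 and -0.49 in WT cells.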

How the results depend on the processing

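Alternatives were run for the named REs that were called (25 at 500 nM, 11 at 3 h and 17 at 24 h), and none of these changed direction. Of the 50 members called at 500 nM, 24 were called under every alternative and 36 in every fit that left out a replicate, where the count ran from 41 to 55. Without any block or batch term, 24 members were called at 500 nM, 12 at 16 nM and 1 at 5 nM. With the replicate block, the counts were 61 (500 nM), 54 (16 nM), 21 (5 nM) and 1 (1.6 nM). In WT cells at 48 h, DESeq2, the fit with no replicate block and each fit without a replicate called 0. In SOX9-tagged cells DESeq2 called 13 at 3 h and 18 at 24 h, the fit with no replicate block 0 and 1, and the fits without a replicate 13 to 14 and 12 to 23. The fits with no replicate block gave 1 difference between the genotypes at 3 h and 1 at 24 h, and those without a replicate 9 to 14 and 9 to 16. In WT cells and in the time course, a fit without a replicate left 1 sample per group of that genotype. Its spread came from samples of the other genotype, so its count is not a like comparison with the main fit. The cause of these shifts was not tested. On the log2 scale, 7 of the 25 ED50 values moved by more than their jackknife error, to 26.3% for RUNX1-RE16, 19% for RUNX1-RE34, 28.5% for RUNX1-RE38, 39.0% for RUNX2-RE1, 16.7% for RUNX2-RE24, 12.7% for RUNX3-RE27 and 12.4% for RUNX3-RE32. Depth limits the weakest REs: RUNX1-RE34 fell to 0.0 CPM in its lowest sample, so the size of its fold change rests on few reads.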
